A study of Mus musculus with 48 samples.

Results

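The comparison set liver RNA at ZT16 against liver RNA at ZT4 in mice labelled as adipocyte knockouts of Bmal1, the clock activator whose gene symbol is Arntl. ZT is zeitgeber time, in hours after lights would come on, so ZT4 falls in the rest phase of a mouse and ZT16 in its active phase. The members were chosen by label alone, as the KO libraries of those 2 times, and numbered 7 of the 48 libraries in the series, 3 at ZT16 and 4 at ZT4. The other libraries were the remaining KO mice and their WT counterparts, collected every 4 h over a day. WT livers at the same times, 5 at ZT16 and 4 at ZT4, were used for the comparison between genotypes.

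All of these mice were female and on the C57BL/6J background. They were housed under 12 h of light and 12 h of dark, then kept in constant darkness and without food for 24 h before collection, in KO and WT groups alike. A fasted liver is therefore the setting of every value given here, and no fed group entered the comparison. The KO label refers to fat cells; the Cre driver, the alleles carried by the KO mice and those of the WT mice are not given in the sources used here. The level of Arntl in liver does not check a deletion confined to adipocytes. The KO mice at ZT16 were 38, 38 and 105 weeks old and weighed 22.4 ± 1.48 g (SD, n = 3), and those at ZT4 were 58.5 to 73.75 weeks old and weighed 25.8 ± 1.60 g (SD, n = 4). The WT mice at ZT16 were 38, 38, 93, 93 and 105 weeks old and weighed 21.0 ± 2.22 g (SD, n = 5), and those at ZT4 were 58.5 to 73.75 weeks old and weighed 24.0 ± 1.54 g (SD, n = 4).

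The molecular clock is a loop of transcription factors. ARNTL pairs with CLOCK or NPAS2 and switches on genes that carry E-boxes, among them those of the period and cryptochrome proteins, which then repress the pair. REV-ERB receptors (Nr1d1, Nr1d2) and ROR receptors (such as Rora) compete for one response element and so set the timing of Arntl, Cry1 and other targets. PAR bZIP factors such as DBP carry the rhythm to output genes, and feeding, fasting, glucocorticoids and body temperature add rhythms of their own to the liver.

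Promoter sequences are printed for the called clock genes that had an entry in the RefSeq promoter table (GRCm38.p6, 250 bases before to 50 after a transcription start), because the members of this group moved in opposite directions. Of the 18 clock genes described 16 had an entry, and of the 5 called genes 4 did. Capitals mark the motifs searched on both strands: the E-box CACGTG, the E-prime box CACGTT, the D-box TTATGTAA and the ROR response element TAGGTCA. Among all 32851 promoters there, 7.15% held the E-box, 4.68% the E-prime box, 0.938% the D-box and 2.61% the ROR element. Each sequence is given 5′ to 3′ on the strand of its gene. A match is a description of letters only. Clock genes that were not called held these motifs too. Per1, Tef, Bhlhe41 and Gm129 (named Ciart in that table) held the E-box, Cry2 the E-prime box, Nfil3 the ROR element and Per3 the D-box.
Cry1, chr10:85185005-85185304, minus strand, 1 E-box and 1 E-prime box read on the reverse strand: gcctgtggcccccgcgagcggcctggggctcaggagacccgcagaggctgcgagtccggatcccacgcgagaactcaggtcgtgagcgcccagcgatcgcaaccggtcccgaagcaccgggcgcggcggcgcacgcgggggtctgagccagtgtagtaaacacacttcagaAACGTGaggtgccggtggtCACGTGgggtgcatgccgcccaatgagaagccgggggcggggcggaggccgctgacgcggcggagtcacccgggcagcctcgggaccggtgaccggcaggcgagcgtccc
Arntl, chr7:113207261-113207560, plus strand, 1 ROR element (the other Arntl entry of the table held none of the motifs): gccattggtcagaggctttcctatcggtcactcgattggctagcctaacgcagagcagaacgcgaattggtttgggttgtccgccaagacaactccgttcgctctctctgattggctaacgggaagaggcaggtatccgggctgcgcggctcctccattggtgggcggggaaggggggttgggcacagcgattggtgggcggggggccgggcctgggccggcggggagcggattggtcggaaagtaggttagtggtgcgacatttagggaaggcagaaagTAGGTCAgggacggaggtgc
Nr1d1, chr11:98775328-98775627, minus strand, 1 E-prime box read on the reverse strand: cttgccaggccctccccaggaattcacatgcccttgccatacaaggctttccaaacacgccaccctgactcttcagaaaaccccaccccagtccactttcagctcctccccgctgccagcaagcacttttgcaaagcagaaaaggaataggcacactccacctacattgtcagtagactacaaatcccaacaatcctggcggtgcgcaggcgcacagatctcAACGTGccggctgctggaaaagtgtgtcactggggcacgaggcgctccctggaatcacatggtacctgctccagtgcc
Dbp, chr7:45704997-45705296, plus strand, none of the 4 motifs in this window: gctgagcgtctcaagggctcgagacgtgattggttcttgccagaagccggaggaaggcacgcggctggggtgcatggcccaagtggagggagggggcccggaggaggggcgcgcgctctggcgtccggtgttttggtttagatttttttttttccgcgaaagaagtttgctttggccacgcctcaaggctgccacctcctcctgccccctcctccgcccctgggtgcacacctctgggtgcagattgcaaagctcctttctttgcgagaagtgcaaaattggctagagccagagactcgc

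Levels are given as CPM, read counts scaled to one common library total, with edgeR's TMM factors applied and the albumin gene left out of the library sizes. A gene was called where edgeR's quasi-likelihood test of ZT16 against ZT4 gave an adjusted p under 0.05 (Benjamini-Hochberg over 13646 genes). Log2 differences are ZT16 minus ZT4, followed by a standard error. That error was worked back from the test, as the size of the log2 difference divided by the square root of its F statistic. The labels give an age and a weight for each library and name no litter or batch, so the p-values measure only the spread between libraries. That spread was estimated over all 48 libraries and not from these 7 alone. The 7 libraries held 12863192 to 13006799 counts each. The KO ZT16 replicates were not alike: replicates 1 and 2 had a profile correlation of 0.946, while replicate 3, the mouse of 105 weeks, was nearer to ZT4 replicate 3 at 0.975. The slope of a library's deviation on gene GC content, in log2 units per 10 points of GC, was 0.12, 0.17 and -0.74 in the 3 ZT16 libraries and 0.50, -0.33, -0.80 and -0.68 in the 4 ZT4 libraries. The slope was fitted as a covariate in 1 alternative, given below for the number of calls and for some genes. Its part in any single gene was not tested apart from that fit. For the calls that rest most on 1 library, the value without that library is given beside them or for the gene group they belong to.

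In all, 438 of 13646 genes were called in KO liver, 3.21% of those tested. Of these 273 (2.0%) rose from ZT4 to ZT16 and 165 (1.21%) fell, and 287 changed by more than 1 on the log2 scale. The median log2 difference over all genes tested was 0.03. The KO ZT16 and ZT4 libraries did not overlap in level for 1125 genes (8.24% of those tested), 545 with ZT16 above (3.99%) and 580 with ZT16 below (4.25%), and 278 of the 438 called genes were among them. The calls depended most on KO ZT16 replicate 2: without it 42 genes were called (0.308%), 39 of them from the 438. Without ZT16 replicate 3 the count was 2113 and without ZT4 replicate 1 it was 1043. Without the other libraries it was 219 (ZT16 replicate 1), 210 (ZT4 replicate 2), 258 (ZT4 replicate 3) and 154 (ZT4 replicate 4). ZT16 replicate 2 held the highest of the 7 values for 183 of the 273 genes called higher (67.0%), and genes called higher all had their highest value in a ZT16 library. Among all 6723 tested genes with their highest value in a ZT16 library, replicate 2 held it in 39.6%. It held the lowest value for 94 of the 165 genes called lower (57.0%), and in 35.5% of the 6808 tested genes with their lowest value in a ZT16 library. With the replicate number as a block within the KO ZT16 and ZT4 libraries 149 genes were called, 69 higher and 80 lower. ZT16 has no replicate 4, so this block fits ZT4 replicate 4 on its own and takes it out of the difference. Without ZT4 replicate 4 and with no block the count was 154, as given above. How much of the block's effect on any call comes from losing that library was not tested. With each library's GC slope as a covariate 1447 were called (10.6%). In a fit of these 7 libraries alone, without the spread of the other groups, 3 were called.

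**Figure D1:**
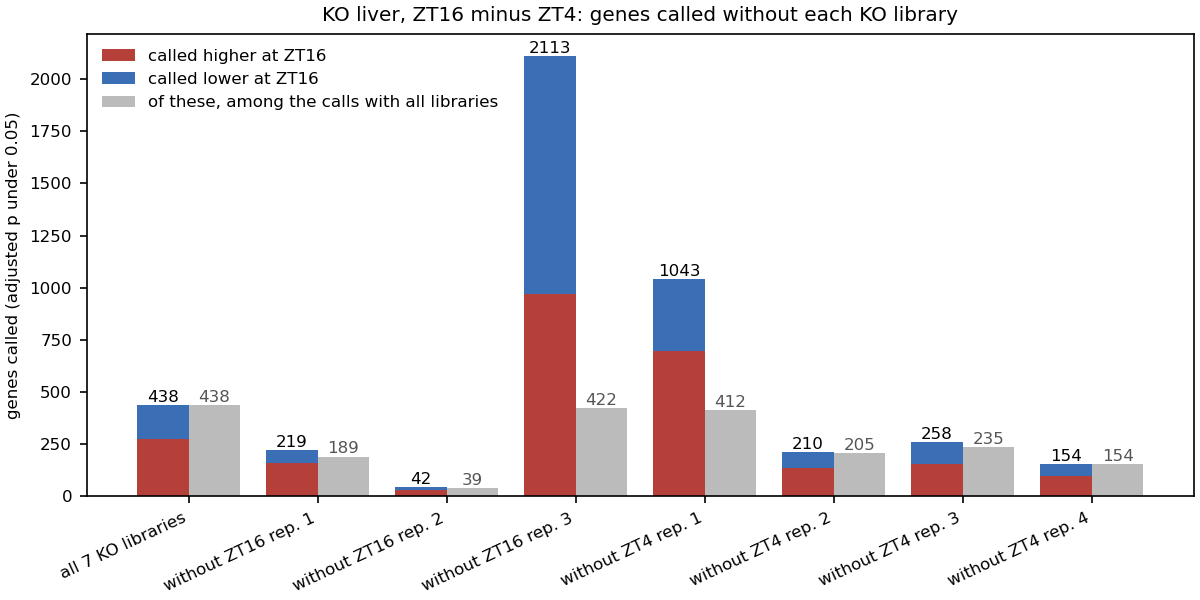
Number of genes called between ZT16 and ZT4 in KO liver (vertical axis, adjusted p under 0.05) with all 7 KO libraries and without each in turn (horizontal axis). Red and blue are genes called higher and lower at ZT16, and grey bars count those that are also among the 438 calls with all libraries. The count falls to 42 without ZT16 replicate 2 and reaches 2113 without ZT16 replicate 3.

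Among the 18 clock genes described, 3 rose at ZT16 (Arntl, Per2 and Cry1), 2 fell (Nr1d1 and Dbp) and 13 were not called. The called genes are 27.8% of these 18, against 3.21% of all genes. The median log2 difference of the 18 was 0.10. The levels of 6 of the 18 did not overlap between the times, against 8.24% of all genes.

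Cry1, a cryptochrome that represses the activator pair and whose promoter carries the E-box shown earlier, lies at mm9 chr10:84594447-84647799. Its level was 44.3, 67.2 and 55.3 CPM at ZT16 against 8.88, 6.19, 11.9 and 9.89 CPM at ZT4. Every ZT16 library was above every ZT4 library, with a log2 difference of 2.59 ± 0.28 (edgeR adjusted p = 1.5e-07), a 6.03-fold higher level.

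Per2, a period repressor at mm9 chr1:93312561-93355907, was at 59.0, 51.3 and 37.9 CPM at ZT16 and at 11.1, 12.9, 17.3 and 17.8 CPM at ZT4. Its lowest ZT16 value was above the highest ZT4 value, and its log2 difference was 1.74 ± 0.31 (edgeR adjusted p = 0.00173). Cry1 and Per2 were called in each of the 7 fits that left out 1 KO library, and also with the replicate block within the KO libraries, where their adjusted p were 5.1e-06 and 0.0129.

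Arntl itself, at mm9 chr7:120350979-120457636, was at 19.2, 36.1 and 23.6 CPM at ZT16 and at 12.6, 10.5, 6.08 and 8.96 CPM at ZT4. The levels did not overlap, and the log2 difference was 1.46 ± 0.41 (edgeR adjusted p = 0.0388). That call was lost in 5 of the 7 fits without 1 library, with a log2 difference of 1.17 and an adjusted p of 0.286 without ZT16 replicate 2, and the adjusted p was 0.107 with the replicate block within the KO libraries. The other activators were not called: Clock had a log2 difference of 0.07 ± 0.37 and Npas2 one of -0.12 ± 0.57.

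The 2 clock genes that fell were lower at ZT16 by larger factors and with larger errors. Dbp, a PAR bZIP activator at mm9 chr7:52960458-52965525, was at 12.7, 8.34 and 5.30 CPM at ZT16 and at 73.6, 23.2, 67.8 and 76.7 CPM at ZT4. The groups were separate although ZT4 replicate 2 was well under the other ZT4 libraries, and the log2 difference was -2.78 ± 0.61 (edgeR adjusted p = 0.00814). Without ZT16 replicate 2 Dbp had a log2 difference of -2.74 and an adjusted p of 0.0776, and in the other 6 such fits it was called. Nr1d1, the REV-ERB alpha receptor at mm9 chr11:98629246-98636647, was at 4.23, 4.95 and 0.163 CPM at ZT16 and at 116, 11.7, 5.17 and 16.9 CPM at ZT4. The lowest ZT4 value, in replicate 3, was only just above the ZT16 libraries, and ZT4 replicate 1 stood far above the other ZT4 mice. The log2 difference was -3.58 ± 1.02 (edgeR adjusted p = 0.0391), and the call was lost in 5 of the 7 fits without 1 library. Without ZT4 replicate 1 the log2 difference of Nr1d1 was -1.86 (adjusted p = 0.181). Its adjusted p was 0.0979 with the replicate block within the KO libraries. Nr1d1 shares its 3′ end with Thra on the opposite strand, and how the counting treated strand is not described in the sources used here beyond the word sense in the deposited table's title.

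None of the other clock genes passed the main edgeR test, with all libraries, TMM factors, albumin left out and no covariate. With each library's GC slope as a covariate Cry2, Nfil3 and Bhlhe41 did (edgeR adjusted p = 0.0133, 0.0238 and 0.0244). By DESeq2 Bhlhe41 did (adjusted p = 0.0294), and with body weight Nfil3 did (edgeR adjusted p = 0.0395). Bhlhe41 was also called by edgeR with RLE factors in place of TMM, and with albumin kept in the library sizes. Without ZT16 replicate 3 Per1, Nfil3, Bhlhe40 and Bhlhe41 were called, and without ZT4 replicate 1 Per1, Cry2 and Nfil3. Bhlhe41 was also called without ZT4 replicate 2 or 3. For Per1 the levels overlapped, with 53.3, 106 and 11.2 CPM at ZT16 and 43, 18.3, 5.83 and 12.4 CPM at ZT4, a log2 difference of 1.51 ± 0.65 (edgeR adjusted p = 0.199). Nfil3, a repressor that competes with the PAR bZIP factors, was separate between the times, at 35.4, 73.4 and 30.8 CPM against 28.6, 14.3, 17.2 and 13.5 CPM, but its adjusted p was 0.0929. The E-box repressor Bhlhe41 had a log2 difference of -2.77 ± 0.83 with levels of 0.0743 to 0.245 CPM at ZT16 and 0.161 to 2.10 CPM at ZT4 (edgeR adjusted p = 0.0538). Per3, Cry2, Nr1d2, Rora, Tef, Hlf, Bhlhe40 and Gm129 had log2 differences between -0.71 (Nr1d2) and 1.08 (Gm129), with edgeR adjusted p of 0.173 or more.

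**Figure D2:**
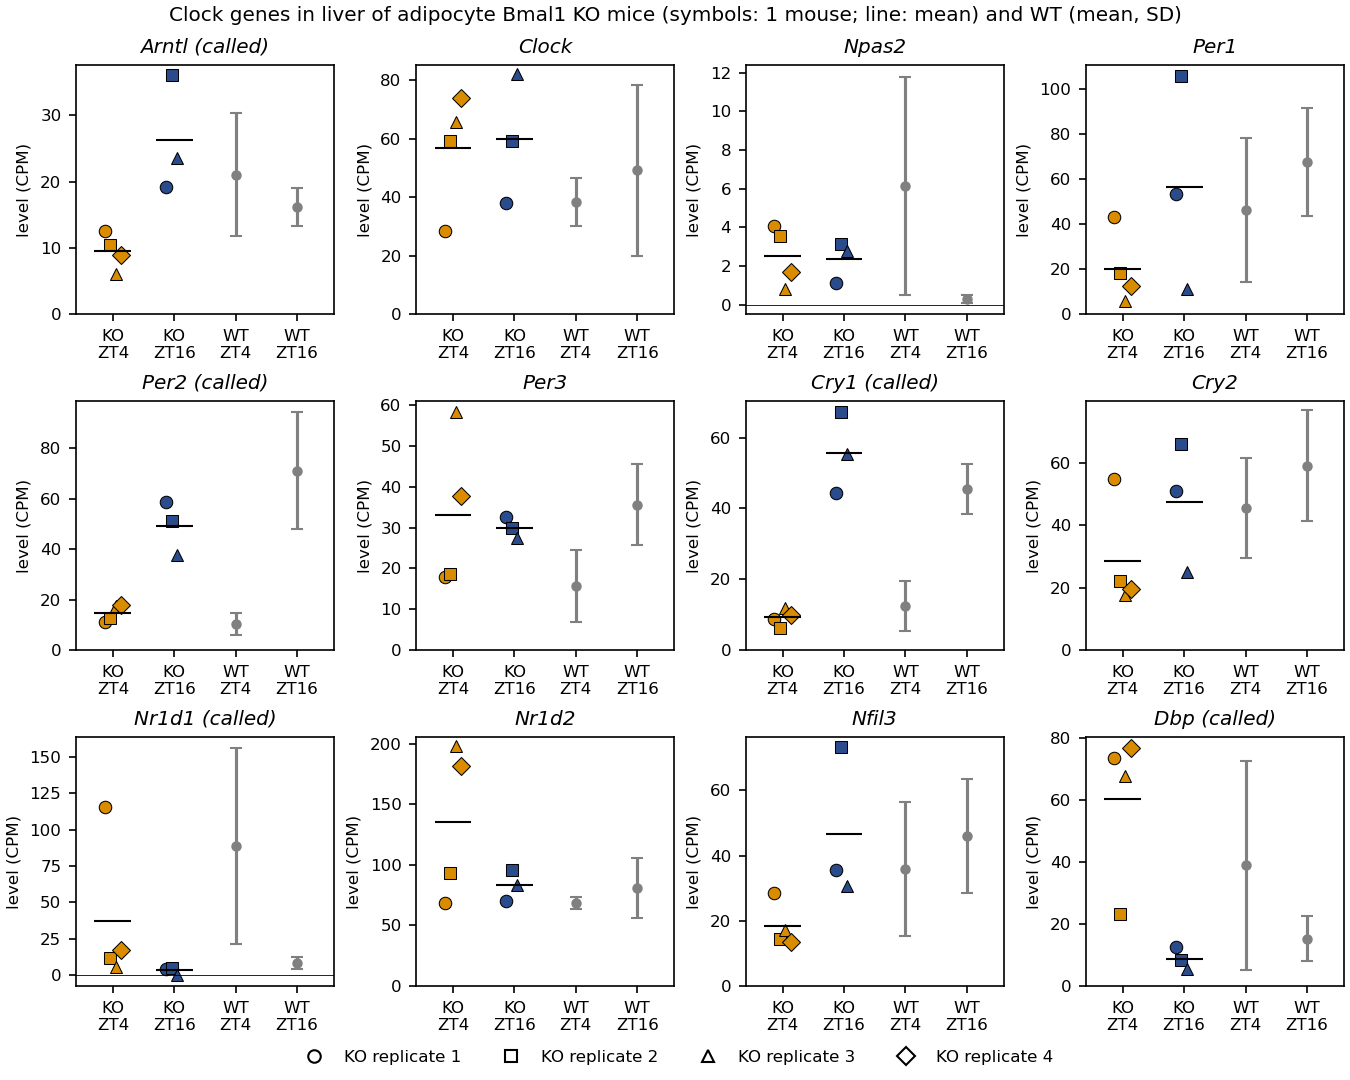
Levels of 12 clock genes in CPM (vertical axes) in each KO library at ZT4 (orange) and ZT16 (blue), with the group mean as a line and the replicate number as the symbol, beside the WT mean ± SD in grey. Cry1 and Per2 are fully separate between the times, while Nr1d1 at ZT4 spreads from 5.17 to 116 CPM.

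The largest rises at ZT16, taken as the 10 called genes of highest log2 difference with a mean level above 2 log2 CPM, were Igfbp1, Ddit4, Lpin1, Lepr, Eif4ebp3, Cyp2b10, Zbtb16, Plk3, Gadd45g and Pdk4. They include known fasting and hormone responders: Igfbp1 encodes an insulin-repressed binding protein of the insulin-like growth factors, Ddit4 an inhibitor of mTORC1, Lpin1 a phosphatidate phosphatase and Pdk4 the kinase that holds back pyruvate dehydrogenase. Igfbp1 (mm9 chr11:7097785-7102549) was at 129, 3764 and 109 CPM at ZT16 and at 53.3, 68.1, 21.9 and 11.4 CPM at ZT4. The times did not overlap, but replicate 2 stood far above the other libraries, and the log2 difference fell from 5.11 ± 0.94 (edgeR adjusted p = 0.00197) to 1.62 (adjusted p = 0.421) without ZT16 replicate 2. Ddit4 was at 7.35, 320 and 3.10 CPM at ZT16 and between 3.12 and 7.64 CPM at ZT4, so that it was high in that single library only. Its log2 difference was 4.51 with all libraries and 0.12 without ZT16 replicate 2 (edgeR adjusted p = 0.974). Lpin1 was at 187, 1527 and 16.7 CPM at ZT16 and at 31.9, 45.4, 13.3 and 21.6 CPM at ZT4.

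Of these 10 genes 9 had their highest value in ZT16 replicate 2, and all 10 lost their call without that library. Ranges were separate for 4 of the 10, against 278 of all 438 called genes and 8.24% of all genes tested. With the replicate block within the KO libraries 1 of the 10, Cyp2b10, was called. Pdk4 was the exception in its peak, with 171, 97.5 and 226 CPM at ZT16 and 21.7, 20.8, 41.2 and 10.4 CPM at ZT4. Its log2 difference was 2.81 ± 0.75 (edgeR adjusted p = 0.0277) and 3.08 (adjusted p = 0.0749) without ZT16 replicate 2. Lepr, the leptin receptor, also kept the times apart, at 32.1, 516 and 30.4 CPM against 2.26, 14.2, 13.4 and 10.2 CPM, as did Cyp2b10, a cytochrome P450 of xenobiotic metabolism, at 46.1, 343 and 48.8 CPM against 10.9, 8.37, 4.68 and 18.9 CPM. Reads of Cyp2b10 may be shared with other members of its gene family.

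The 10 largest falls by the same rule were Nr1d1, Dbp, 1500017E21Rik, Cyp2g1, Raet1d, Ccdc66, Mcm10, Tsc22d1, Fam25c and 3010026O09Rik. Of these 10 genes, 7 had separate ranges, against 278 of all 438 called genes and 8.24% of all genes tested. Mcm10, a factor of DNA replication initiation, was at 21.5, 11.7 and 16.3 CPM at ZT16 and at 53.9, 69.2, 39.8 and 44.5 CPM at ZT4. Its log2 difference was -1.65 ± 0.33 (edgeR adjusted p = 0.00419), and -1.46 with an adjusted p of 0.0749 without ZT16 replicate 2. The unnamed transcript 1500017E21Rik was at 11.4, 2.26 and 27.8 CPM at ZT16 and at 111, 84.8, 107 and 141 CPM at ZT4. All 10 falls lost their call without ZT16 replicate 2, and 6 of them were called with the replicate block within the KO libraries.

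Of the genes reported here, 21 were called with all libraries and in each of the 7 fits without 1 KO library, 16 higher and 5 lower. This set was chosen after its values were seen and is given as a description; it makes up 0.154% of the genes tested and 4.79% of the calls. The 16 that rose were Cry1, Per2, Rhobtb1, Lingo4, Mycl1, Ccng2, Gm15459, P4ha1, Pxdn, Vipr1, Gdf10, Inhbb, Tsku, Abcc4, Hsph1 and Fhl1. The 5 that fell were Snapin, Gabpb1, Faim, 2010107H07Rik and 4833418N02Rik. For all 21 the levels at the 2 times did not overlap, against 278 of all 438 calls. All 21 were also called with the replicate block within the KO libraries, against 145 of the 438. Both come from the same 7 libraries by which the set was chosen, so neither adds support.

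Among these, Tsku, a secreted leucine-rich protein, was at 201, 105 and 139 CPM at ZT16 and at 42.9, 42.1, 44.2 and 41.6 CPM at ZT4. The 4 ZT4 mice were almost equal, and every ZT16 mouse was well above them; the log2 difference was 1.79 ± 0.35 (edgeR adjusted p = 0.00336). P4ha1, a subunit of the prolyl hydroxylase that acts on collagen, was at 21.0, 17.6 and 14.4 CPM against 6.47, 6.19, 3.29 and 5.10 CPM. Inhbb, the beta B subunit of activins and inhibins, was at 3.19, 3.39 and 2.12 CPM against 0.545, 0.724, 0.657 and 0.386 CPM. Vipr1, a receptor for vasoactive intestinal peptide, was at 71.1, 53.6 and 39.5 CPM at ZT16 and between 17.2 and 27.6 CPM at ZT4. Ccng2, an atypical cyclin, was at 43.8, 83.0 and 56.7 CPM at ZT16 and between 16.4 and 25.4 CPM at ZT4. Abcc4, an efflux transporter of organic anions, was at 10.1, 12.2 and 16.8 CPM and between 2.41 and 5.01 CPM. Of the genes that fell, Snapin, a SNARE-associated protein, was at 14.3, 14.5 and 17.4 CPM at ZT16 and at 26.3, 33.8, 25.7 and 31.5 CPM at ZT4, and Gabpb1, a subunit of the GABP transcription factor, was at 7.95, 7.91 and 7.43 CPM against 10.9, 13.2, 12.8 and 12.7 CPM.

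**Figure D3:**
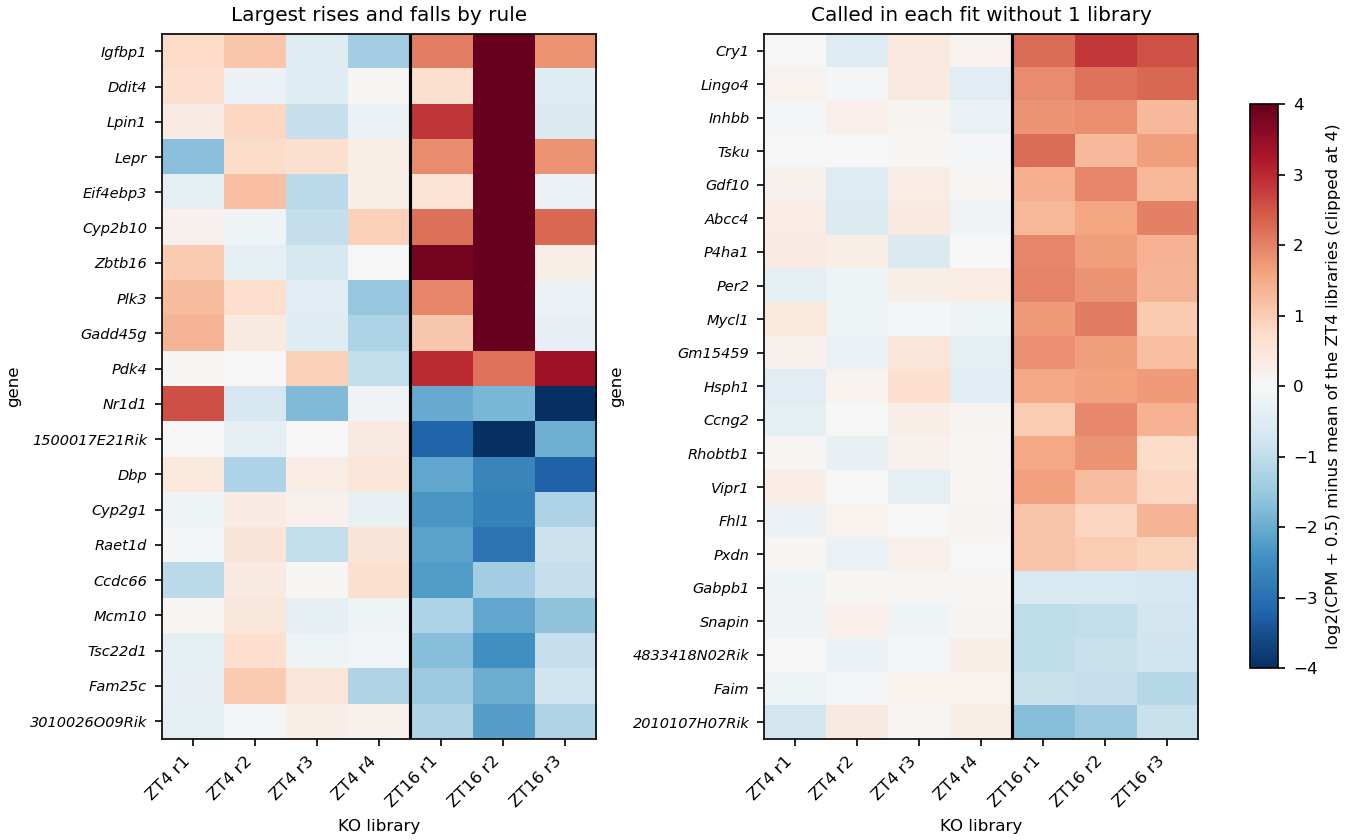
Level of each gene (rows) in each KO library (columns) as log2(CPM + 0.5) minus the mean of the 4 ZT4 libraries, clipped at 4, for the 10 largest rises and 10 largest falls (left) and for the 21 genes called in each fit without 1 library (right). On the left the column of ZT16 replicate 2 is darkest for most rises. On the right, a set chosen from these same libraries, the 3 ZT16 columns share their direction.

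Heat shock genes, which encode chaperones and follow body temperature over the day, were higher at ZT16 in sum in every KO library. The summed level of the 16 members tested was 5228, 6103 and 6227 CPM at ZT16 and 3018 to 4242 CPM at ZT4, with no overlap. Hsph1, Hspa8 and Hspa1b rose, 3 of 16 against 2.0% of all genes, none fell, and the list's median log2 difference was 0.69. Hsph1, an HSP110 chaperone at mm9 chr5:150416862-150438951, was at 114, 120 and 129 CPM at ZT16 and at 28.9, 43.1, 62.7 and 29.1 CPM at ZT4. The ZT16 mice were close together and all above ZT4, with a log2 difference of 1.56 ± 0.33 (edgeR adjusted p = 0.00696) that kept its call without any 1 library. Hspa1b, an inducible HSP70, was at 10.3, 9.91 and 12.9 CPM against 1.48, 1.45, 1.07 and 1.08 CPM. Its log2 difference was 3.11 ± 0.82 (edgeR adjusted p = 0.0267), and 3.18 with an adjusted p of 0.0990 without ZT16 replicate 2. With the replicate block within the KO libraries Hsph1 was the 1 member of the 16 called. Reads of Hspa1b may be shared with its near-identical neighbour Hspa1a. The cold-induced RNA-binding genes in the same list lay the other way without passing the test: Cirbp had a log2 difference of -1.17 (edgeR adjusted p = 0.0597) and Rbm3 one of -0.81 (adjusted p = 0.136).

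Glucocorticoid-induced genes rose in 9 of 19 (47.4%, against 2.0% of all genes) with none lower. The median log2 difference of the 19 was 1.43, and 0.70 without ZT16 replicate 2. The 9 were Dusp1, Fkbp5, Tsc22d3, Zbtb16, Tat, Cdkn1a, Igfbp1, Gadd45b and Angptl4. The gene lists share members, so counts from different lists are not separate results. Tsc22d3, Tat, Cdkn1a, Igfbp1, Gadd45b and Angptl4 are counted in other lists below as well, and Lpin1 and Btg2 are likewise counted more than once. Dusp1, a phosphatase of MAP kinases, was at 38.6, 78.3 and 22.6 CPM at ZT16 and at 18.6, 9.98, 8.05 and 8.73 CPM at ZT4. The ranges were separate, with a log2 difference of 2.03 ± 0.46 (edgeR adjusted p = 0.00929). Tsc22d3, also called GILZ, was at 198, 380 and 185 CPM against 116, 125, 86.1 and 106 CPM. Fkbp5, an immunophilin bound to steroid receptor complexes, was at 95.3, 357 and 41.8 CPM at ZT16 and at 33, 39.6, 50.4 and 42.9 CPM at ZT4, so its replicate 3 lay inside the ZT4 range. Tat, tyrosine aminotransferase, was at 1535, 8583 and 502 CPM against 1010.3, 1185, 351 and 439 CPM, where only replicates 1 and 2 were above ZT4. Without ZT16 replicate 2 none of the 19 was called, and with the replicate block within the KO libraries none was either.

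Growth arrest genes rose in 5 of 12 (Gadd45b, Gadd45g, Cdkn1a, Btg2 and Ddit4) and immediate early genes in 3 of 17 (Fosl2, Jun and Btg2), against 2.0% of all genes. The median log2 difference of the growth arrest list was 1.20, and 0.14 without ZT16 replicate 2. That of the immediate early list was 0.88, and 0.36 without that library. All 17 immediate early genes had a log2 difference above 0, against 52.2% of all genes, but 16 did under other scalings, 15 with the GC slope and 13 without ZT16 replicate 2. Fosl2, a subunit of AP-1, was at 12.2, 38.2 and 8.32 CPM at ZT16 and at 6.55, 6.60, 3.86 and 3.48 CPM at ZT4. Cdkn1a, the p21 inhibitor of cyclin-dependent kinases, was at 28.3, 126 and 5.06 CPM against 13.1, 9.65, 2.14 and 10.7 CPM. Each of the called members of both lists had its highest value in ZT16 replicate 2, and without it none was called. With the replicate block within the KO libraries no growth arrest gene was called, and Fosl2 was the 1 immediate early gene called.

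Clock-controlled liver outputs rose in 7 of 20 (35%, against 2.0% of all genes) with none lower, and 19 of the 20 had a log2 difference above 0 (median 0.94). Usp2, a deubiquitinase under clock control, was at 39.9, 57.8 and 13.7 CPM at ZT16 and at 6.94, 3.94, 11.9 and 8.81 CPM at ZT4. Ccrn4l, also called nocturnin, was at 70.2, 171 and 228 CPM against 28.8, 64.8, 26.5 and 13.2 CPM. Both kept the times apart, with log2 differences of 2.23 ± 0.51 and 2.23 ± 0.57 (edgeR adjusted p = 0.0108 and 0.0212). Fbxl21, a ligase subunit that acts on cryptochromes and the single member of the clock kinase and ligase list of 12 to be called, was lower at ZT16 (1 of 12 against 1.21% of all genes), at 1.04, 0.348 and 1.22 CPM against 2.81, 2.90, 2.96 and 3.01 CPM. None of these calls held without ZT16 replicate 2, where adjusted p were 0.151 for Usp2, 0.114 for Ccrn4l and 0.0666 for Fbxl21. With the replicate block within the KO libraries none of the 20 outputs was called, while Fbxl21 was (adjusted p = 0.0129).

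Among lipid genes, 4 of 22 members of fatty acid and triglyceride synthesis rose (Acacb, Mlxipl, Lpin1 and Lpin2, median log2 difference 0.69), against 2.0% of all genes, and none fell. None of the 4 was called without ZT16 replicate 2, and 1 was with the replicate block within the KO libraries. Acacb, the acetyl-CoA carboxylase that makes malonyl-CoA at mitochondria, was at 86.6, 260 and 39.3 CPM at ZT16 and at 47.5, 25.8, 23.2 and 13.2 CPM at ZT4. Mlxipl, the carbohydrate-responsive factor ChREBP, was at 486, 421 and 219 CPM against 236, 182, 154 and 122 CPM. For both genes ZT16 replicate 3 was inside the ZT4 range. Of 30 PPARalpha targets and ketogenic genes, Pdk4 and Angptl4 rose (2 of 30, against 2.0% of all genes) and 28 were not called, with a median of 0.09. Neither was called with that block or without ZT16 replicate 2. Angptl4, an inhibitor of lipoprotein lipase, was at 376, 520 and 357 CPM against 192, 285, 209 and 187 CPM (log2 difference 0.94 ± 0.27, edgeR adjusted p = 0.0464). No member of cholesterol synthesis and uptake (25 tested, median 0.48) or of lipid uptake and droplets (18 tested, median 0.27) was called, and the smallest adjusted p there were those of Pmvk at 0.050 and Fitm2 at 0.0675.

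In glucose metabolism, 3 of 20 enzymes and regulators rose, against 2.0% of all genes, and Gckr fell, 1 of 20 against 1.21%. None of the 4 was called without ZT16 replicate 2 or with the replicate block within the KO libraries. Ppp1r3b, a glycogen-targeting subunit of protein phosphatase 1, was at 477, 346 and 484 CPM at ZT16 and at 141, 242, 219 and 249 CPM at ZT4, a log2 difference of 1.03 ± 0.30 (edgeR adjusted p = 0.0417). Ppp1r3g, another glycogen-targeting subunit, was at 8.69, 304 and 1.80 CPM against 1.25, 0.322, 0.986 and 0.155 CPM. Its log2 difference was 7.25, and 2.94 without ZT16 replicate 2 (edgeR adjusted p = 0.121). Gckr, the regulatory protein that holds glucokinase in the nucleus, was at 156, 123 and 136 CPM at ZT16 and at 225, 191, 191 and 230 CPM at ZT4. Its change was small but fully separate, a log2 difference of -0.60 ± 0.15 (edgeR adjusted p = 0.0181). In the list of insulin, IGF and growth hormone signalling, Foxo1, Foxo3, Irs2 and Igfbp1 rose (4 of 18, against 2.0% of all genes). The median of that list was 0.22, and 0.066 without ZT16 replicate 2, where none was called; with the block Foxo1 alone was called. Irs2, an insulin receptor substrate, was at 10.1, 69.6 and 0.0816 CPM against 3.43, 0.724, 0.164 and 0.386 CPM, so that the ZT16 mice held both the highest and the lowest value. Its log2 difference was 4.48, and 2.11 without ZT16 replicate 2 (edgeR adjusted p = 0.401). Of 23 genes of gluconeogenesis and amino acid catabolism Tat rose, 1 of 23 against 2.0% of all genes (median 0.60, and -0.15 without ZT16 replicate 2). The gluconeogenic enzyme Pck1, at 4195, 8397 and 950.2 CPM against 3807, 2576, 1118 and 1276 CPM, did not pass the test (log2 difference 1.04, edgeR adjusted p = 0.193).

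The remaining lists held few calls. Cyp2a4, Cyp2b10 and Por rose among 30 genes of xenobiotic metabolism, Cyp39a1 among 21 of bile acid handling, Slc39a14 among 13 of iron, haem and copper handling, and Plk3 among 20 of the cell cycle. These are 3 of 30, 1 of 21, 1 of 13 and 1 of 20, against 2.0% of all genes, so the last 3 lists rest on a single gene each. With the replicate block within the KO libraries 2 of the xenobiotic genes and Cyp39a1 were called. Cyp2a4, a testosterone hydroxylase whose reads may be shared with its close homologue Cyp2a5, was at 935, 822 and 1479 CPM at ZT16 and at 195, 125, 562 and 204 CPM at ZT4. None of 23 genes of the unfolded protein and integrated stress response and none of 22 acute phase genes was called. Saa1, serum amyloid A, was at 4374 CPM in ZT4 replicate 2 and between 42.2 and 120 CPM in the other 6 libraries. Without ZT16 replicate 2, calls remained only in the period and cryptochrome list (Per2 and Cry1) and the heat shock list (Hsph1), out of 24 gene groups.

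**Figure D4:**
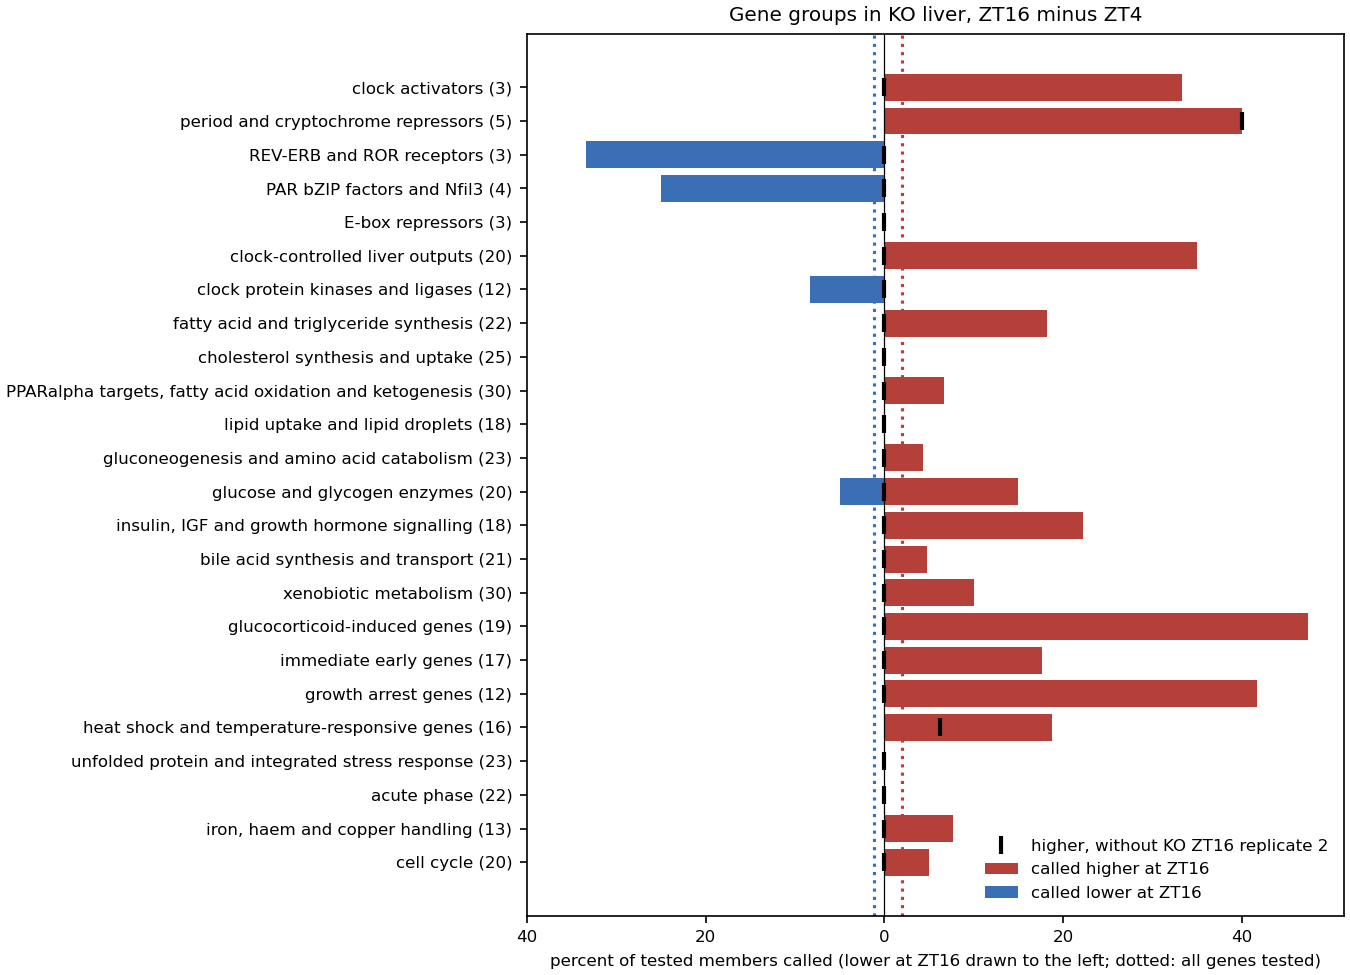
Percent of the tested members of each gene group (rows, number tested in brackets) called higher at ZT16 (red, to the right) or lower (blue, drawn to the left), with the percent over all genes as dotted lines. Black ticks give the percent called higher without KO ZT16 replicate 2, which stays above 0 for the period and cryptochrome and the heat shock groups.

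Markers of other cell types were measured in the same libraries, and their part in the results above was not tested. In a whole-liver library, fewer cells of a type and less RNA per cell cannot be told apart. The 10 hepatocyte markers summed to 33256 to 73812 CPM at ZT16 and 36547 to 67897 CPM at ZT4. Hnf4a and Tat were called higher, 2 of 10 against 2.0% of all genes. Tat was not called without ZT16 replicate 2 (edgeR adjusted p = 0.806). Markers of the sinusoidal endothelium summed to 376, 249.9 and 383 CPM at ZT16 and to 242, 188, 230 and 167 CPM at ZT4, which do not overlap; all 10 had log2 differences above 0, and Lyve1 (1.72), Oit3 (1.01) and Cdh5 (0.95) rose, 3 of 10 against 2.0% of all genes. Without ZT16 replicate 2, 1 of these 10 markers was called, and with the replicate block within the KO libraries none was. Of 12 stellate cell and fibroblast markers 11 had log2 differences above 0 (median 0.61), 3 had separate ranges and none was called. Their sums were 441 to 807 CPM at ZT16 and 262 to 447 CPM at ZT4. Over all genes tested, 52.2% had a log2 difference above 0 and 8.24% had separate ranges. All 14 Kupffer cell and macrophage markers also had log2 differences above 0, with none called and summed levels that overlapped, 499 to 1011 CPM against 372 to 621 CPM. Neutrophil markers summed to 483 CPM in ZT4 replicate 2, the library with high Saa1, and to 16.0 to 53.4 CPM in the other 6, with none of 10 called. Of 8 adipocyte markers 2 passed the filter on low counts, and of 15 exocrine pancreas markers 2 did; no marker of either was called, nor any of lymphocytes, cholangiocytes or erythroid cells.

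The labels also allow the ZT16 change in KO liver to be set against that in WT liver. In WT, 604 of 13646 genes were called between the same times (4.43%). Of these 156 were also called in KO, which is 35.6% of the KO calls and 25.8% of the WT calls, and all 156 had the same direction. Of the 438 genes called in KO, 414 had a log2 difference of the same sign in WT. The share of all genes tested with the same sign was not counted. The test of the difference itself, the KO change minus the WT change, called no gene by edgeR (0.00%), with 617 genes at an unadjusted p under 0.05 and a smallest adjusted p of 0.0634; DESeq2 called 7. Without KO ZT16 replicate 3 the count was 146, and without any other 1 library of these 4 groups it was 0 to 3.

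Cry1 had a log2 difference of 2.59 in KO and 1.87 in WT, and Per2 had 1.74 in KO and 2.77 in WT. Nr1d1 had -3.58 in KO and -3.47 in WT, and Dbp had -2.78 in KO and -1.35 in WT. Arntl did not share its sign, with 1.46 in KO and -0.38 in WT, where it was not called (edgeR adjusted p = 0.670). Its difference between the genotypes was 1.84 ± 0.55 and was not called (edgeR unadjusted p = 0.00168, adjusted p = 0.694). The genes with the smallest p for the difference were Pxdn, Npas2 and Rnf144a. Npas2, the activator that can replace CLOCK, was at 1.11, 3.1 and 2.77 CPM at ZT16 and at 4.05, 3.54, 0.821 and 1.70 CPM at ZT4 in KO liver. In WT it was at 0.310 ± 0.215 CPM at ZT16 (SD, n = 5) and 6.15 ± 5.66 CPM at ZT4 (SD, n = 4), and the difference between the genotypes was 4.17 ± 0.82 on the log2 scale (edgeR adjusted p = 0.0634). Pxdn, a peroxidase of the extracellular matrix, was at 16.7, 15.4 and 14 CPM at ZT16 and at 7.48, 6.03, 8.46 and 7.34 CPM at ZT4 in KO, and at 7.75 ± 1.54 CPM (SD, n = 5) and 9.29 ± 1.84 CPM (SD, n = 4) in WT. The 2 KO groups were fully separate; the WT mean at ZT16 lay within the KO ZT4 range and the WT mean at ZT4 above it. The difference between the genotypes was 1.33 ± 0.26 (edgeR adjusted p = 0.0634). With each library's GC slope as a covariate, an alternative chosen after seeing the data, the difference was called for Pxdn at 1.38 (adjusted p = 0.00586) and for Npas2 at 4.16 (adjusted p = 0.0263). Rnf144a, a ubiquitin ligase, differed by 2.23 ± 0.47 (edgeR adjusted p = 0.110), with log2 differences of 0.98 in KO and -1.25 in WT. Of the 21 genes called in each fit without 1 KO library, 16 were also called in WT, against 156 of all 438 KO calls. The sign was the same there for 20 of the 21, Pxdn being the exception, against 414 of the 438.

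**Figure D5:**
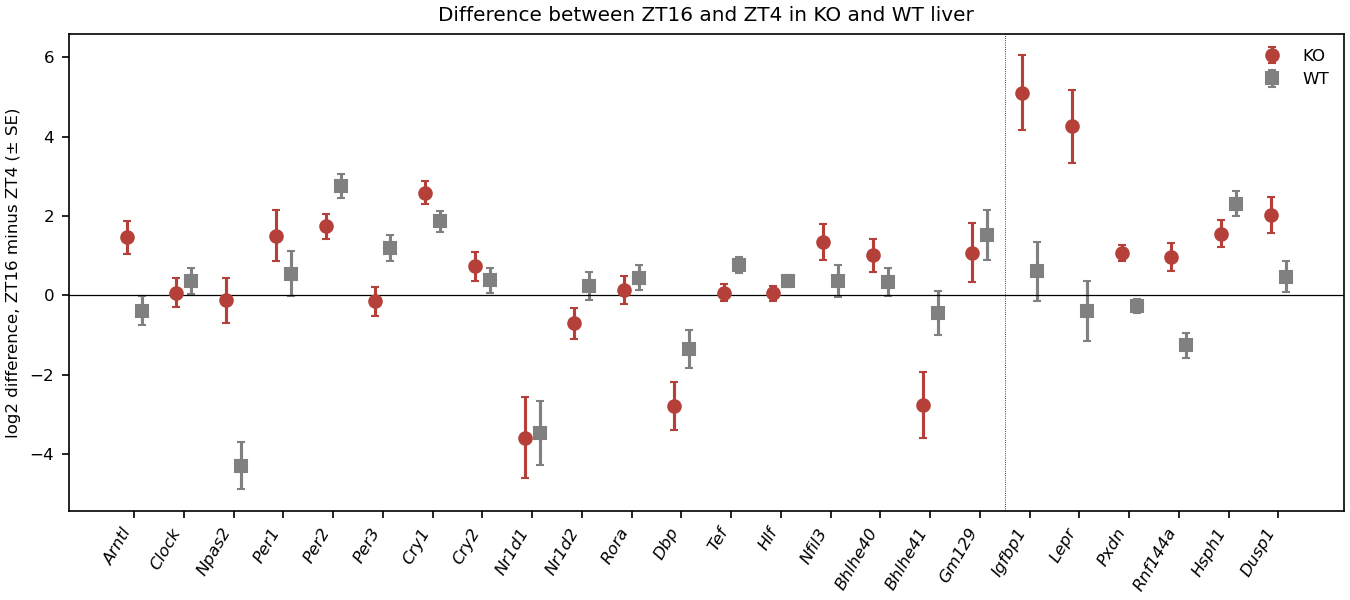
Log2 difference between ZT16 and ZT4 ± SE (vertical axis) in KO (red circles) and WT liver (grey squares) for 18 clock genes and, right of the dotted line, 6 other genes of the text. Npas2 is at -0.12 in KO and -4.29 in WT; no difference between genotypes passed the edgeR test with all libraries and no covariate. The KO value of Nr1d1, -3.58, is -1.86 without KO ZT4 replicate 1.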

How the data were processed

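Liver polyA RNA was sequenced as stranded TruSeq libraries, with 13 PCR cycles and library construction spread over 3 days, per the labels' protocols; which library was made on which day is not given. CASAVA and STAR 2.4.1d with the mm9 build are named in the submitters' processing notes. The authors deposited whole-number read counts per gene for all 48 libraries (22354 genes); how reads were assigned to genes is not given in the sources used here. The albumin row was left out of library sizes and tests. Groups came from the labels.

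Tests used edgeR 4.0.16 under R 4.3.3, with filterByExpr (13646 genes kept), TMM factors (0.892 to 1.05 in these 7 libraries), and a quasi-likelihood fit of 12 group means over all 48 libraries (36 residual degrees of freedom), tested at a Benjamini-Hochberg adjusted p of 0.05. KO ZT16 against KO ZT4 and the KO change minus the WT change were tested. Scripts were checked on simulated counts.

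The members and gene lists (24 gene groups and 10 cell types, 486 of 516 entries tested) were chosen with earlier results of these data known. Named genes were the clock genes tested, the 10 largest called changes each way of those averaging 2 or more in log2 CPM over the KO libraries, up to 4 called members of each other list by smallest p (or the first where none was called), and the 3 smallest p of the difference between genotypes. Members of the set of 21, and Fkbp5, Pck1, Cirbp, Rbm3, Hnf4a, Lyve1, Oit3 and Cdh5, were named after their values were seen. A few genes are not reported here and were left out of the lists and of that set, while they remain in the counts over all genes. GC content came from the longest transcript (97.6% of tested genes matched).

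Alternatives were DESeq2 1.42.0, other scaling, no filter, only the libraries compared, covariates, a replicate block and leaving out each library. Same-numbered KO libraries at ZT16 and ZT4 had correlations of deviations of 0.571, 0.142 and 0.722, each above 0.1. The labels do not say what the numbers share, and ZT16 replicate 2 correlated more with ZT4 replicate 1 (0.544). The ages of these same-numbered mice differed, at 38, 38 and 105 weeks at ZT16 against 73.75, 69.75 and 58.5 weeks at ZT4. The block therefore joins mice that are not matched by age. ZT4 replicate 4 has no partner at ZT16, so with the block it adds nothing to the difference between the times. Same-numbered KO and WT mice had the same age at ZT4 and, for replicates 2 and 3, at ZT16. The test between genotypes did not use this. Calls are from the fit without the block; the fit with it within KO is given beside results it changed. The promoter table is of a different build from the counts and was used for sequences only.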

Additional observations from a re-analysis of the deposited data

Results flagged for a closer look

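Among 71 named genes, 6 had 1 KO ZT4 library far from the other 3 by Dixon's criterion for a group of 4, where chance gives about 1 in 20. That rate assumes independent values with a normal spread, which was not tested for these CPM values. Many of the 71 genes were also chosen by a test on the same libraries, so the rate is only a rough guide here. KO ZT4 replicate 1 was high for Nr1d1 (116 CPM against 16.9 CPM in the next library), Cry2 (54.8 against 22.2 CPM), Bhlhe40 (62.1 against 33.8 CPM) and Btg2 (13.0 against 5.79 CPM). This library also had the highest GC slope of the 7, at 0.50. KO ZT4 replicate 2 was low for Dbp (23.2 CPM against 67.8 CPM in the nearest library) and high for Saa1 (4374 against 120 CPM). That library also held the highest sum of neutrophil markers, at 483 CPM. The part of GC slope or of neutrophil RNA in these values was not tested. KO ZT16 has 3 libraries and was not examined in this way.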

How the results depend on the processing

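The 438 calls (273 higher, 165 lower) numbered 692 by DESeq2 (330 lower), 289 with no filter on low counts (86 lower), 3 in a fit of the 7 libraries alone (3 higher, 0 lower, Hspa1b and Cry1 among them), 149 with the replicate block within KO (69 higher, 80 lower) and 1447 with each library's GC slope as a covariate (847 higher, 600 lower), the last an alternative chosen after seeing the data, as was that block. The replicate block over all 48 libraries gave 424, and other scalings, body weight and age gave 387 to 457. Without 1 KO library in turn the range was 42 to 2113 calls, 31 to 970 higher and 11 to 1143 lower. The difference between genotypes gave 0 calls, 7 by DESeq2, 4 with GC slope, and 0 to 146 without 1 library; the cause was not tested. Uncalled clock genes near 0 changed sign: Clock was -0.013 with the replicate block, Per3 0.16 with that block within KO, and Rora -0.0073 with body weight. Without 1 library the ranges were -0.24 to 0.31 for Clock, -0.41 to 0.22 for Npas2, -0.36 to 0.27 for Per3, -0.067 to 0.36 for Rora, -0.015 to 0.19 for Tef, -0.063 to 0.24 for Hlf and -0.040 to 4.39 for Eif4ebp3. In the 4 KO libraries of negative GC slope, of which 1 is of ZT16, values with no test were -0.29 for Ddit4, -0.49 for Lpin1, -0.36 for Eif4ebp3, -0.18 for Tat, -1.17 for Irs2, -0.33 for Btg2, -0.26 for Cdkn1a and -0.14 for Slc39a14. Groups of 3 and 4 mice, whose ages and weights differ between the times, limit what these fits can show; time, age and weight cannot be fully told apart. The deposited counts without albumin had nearly equal totals, 12841969 to 13009797 over the 48 libraries. Whether they were brought to a common total before deposit was not tested. These totals therefore do not show how deeply each library was sequenced. In the deposited counts 1 CPM is about 13 reads, so low counts limit genes near 1 CPM most.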

Other observations

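Among the 21 genes called in every fit without 1 KO library, several belong to none of the gene lists. Rhobtb1, a BTB domain protein, was at 109, 128 and 60.7 CPM at ZT16 and at 37.8, 29.4, 41 and 38.9 CPM at ZT4 in KO liver. Lingo4, a leucine-rich repeat membrane protein, was at 7.43, 9.13 and 10 CPM against 1.87, 1.53, 2.30 and 1.08 CPM. Mycl1, a member of the MYC family, was at 35.8, 46.8 and 22.7 CPM against 14.5, 9.49, 10.3 and 9.43 CPM. Every ZT16 mouse was above every ZT4 mouse for these 3 genes. Gdf10, a secreted factor of the TGF-beta family, was at 6.98, 10.2 and 6.37 CPM against 2.57, 1.45, 2.87 and 2.32 CPM. Faim, an inhibitor of Fas-induced cell death, was lower at ZT16, at 4.90, 4.78 and 4.00 CPM against 8.18, 9.09, 10.5 and 10.5 CPM. In WT liver the log2 differences were 1.69 for Rhobtb1, 2.30 for Lingo4, 0.76 for Mycl1, 1.48 for Gdf10 and -0.83 for Faim, of which that of Mycl1 was not called (edgeR adjusted p = 0.0902). Mycl1 had a log2 difference of 1.68 in KO, and its difference between genotypes had an unadjusted p of 0.0223.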
